A study of Mus musculus with 12 samples.

Results

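The hormone receptors that adjust the force, rate and growth of the heart, with 3 genes of their ligand systems, were followed in adult hearts that had lost Nkx2-5 from the trabecular myocardium before birth. The genes were Adrb1, Adra1a and Adra1b (adrenergic receptors), Agt, Ace and Agtr1a (the angiotensin system), and Edn1, Ednra and Ednrb (endothelin and its receptors). They were chosen by name, as the probes whose gene name equalled 1 of these symbols. The array held 12 such probes for the 9 genes among 55681 probes. All 12 passed the filter on background, and with them 24593 probes of 18021 gene names were tested.

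Left ventricular RNA came from 12 mice aged 6 months, 1 mouse per one-colour Agilent array and 4 per group. The mutants carried floxed Nkx2-5 alleles (Nkx2-5-ΔNeo) and Cx40-creERT2, a tamoxifen-inducible Cre recombinase placed in the Cx40 (Gja5) gene, which is active in the embryonic trabeculae. Deletion therefore follows the Cx40 pattern at the time of injection and leaves Nkx2-5 in other cells. Tamoxifen was given to pregnant females either on E10.5 and again on E11.5, when trabeculae form (Nkx2-5ΔTrbE10, here TrbE10, called Nkx2-5∆trab in the labels), or on E13.5 and again on E14.5, when they compact (Nkx2-5ΔTrbE14, here TrbE14, called Nkx2-5∆comp). Mutant pups were delivered by caesarean section and raised by CD1 foster mothers. The control group is described in the methods as floxed littermates without Cre, and in the labels as not injected. All groups thus share the floxed background by the methods. The control genotype given there is Cx40+/+, so Cre and the Cx40 allele that carries it were in the mutants only. Any effect of them cannot be told apart from that of the deletion. Exposure of the controls to tamoxifen and fostering is not settled by these sources. Values are log2 signals after quantile normalization, means are given ± SD over the 4 hearts of a group, and signals of different probes are not compared with each other.

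The targeted gene, Nkx2-5, read 11.89 to 12.23 in control, 11.21 to 11.67 in TrbE10 and 11.12 to 11.63 in TrbE14 hearts (n = 4 each). Both mutant groups lay wholly below the controls, as TrbE10 did on 5.47% and TrbE14 on 5.13% of all probes. The difference from control was -0.66 in TrbE10 (limma, adjusted p = 0.0459) and -0.59 in TrbE14 (adjusted p = 0.106), so the second missed the threshold of 0.05, and the first was kept in only 2 of the 12 fits that left out 1 array (adjusted p 0.0155 to 0.130). All 10 cardiomyocyte markers were measured and 0 of them were called in either mutant (at an unadjusted p under 0.05, 3 were lower in TrbE10 and 1 in TrbE14), with summed linear signals of 1083013 to 1128593 in control, 1121440 to 1167170 in TrbE10 and 1047982 to 1125342 in TrbE14 hearts. The 4 TrbE10 arrays were on slide 2 and the 8 other arrays on slide 1, each slide with its own scan, so slide and genotype cannot be told apart wherever TrbE10 is compared. The comparison of TrbE14 with control lies within 1 slide. A signal from Y-linked genes was present in 1 control, 2 TrbE10 and 3 TrbE14 hearts.

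Adrenaline and noradrenaline act on the ventricle through the β1 receptor, which raises cyclic AMP through Gs, and through the α1 receptors, which couple to Gq and phospholipase C. Angiotensinogen is cut by renin and then by angiotensin-converting enzyme to angiotensin II, which acts on the Gq-coupled type 1 receptor. Endothelin 1, released mainly by endothelial cells, acts on receptor A on muscle cells and on receptor B, best known from endothelium. In heart failure, raised drive through these systems is a classical feature and the target of standard drugs. In whole ventricular tissue, fewer cells of a type and less RNA per cell cannot be told apart.

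In TrbE10 hearts 1 of the 9 genes changed against control, Adra1b, which was lower. In TrbE14 hearts 1 of the 9 changed, Edn1, which was higher. A gene was counted when at least 1 of its probes had an adjusted p under 0.05, and by this rule 2.15% of all gene names tested were called in TrbE10 and 0.76% in TrbE14. Genes called lower in TrbE10 made up 0.788% of all genes, and genes called higher in TrbE14 made up 0.583%. With 1 of 9 in each comparison, the count among these genes is too small to set apart from that background. Between the mutants 0 of the 9 genes were called, where limma called 0% of the 18021 gene names and SAM called 0 genes as well. Probes under an unadjusted p of 0.05 made up 5.76% in that comparison. Over the 3 groups together 2 of 9 genes, Adra1b and Edn1, passed the F test (adjusted p = 0.0163 and 0.0416), against 1.37% of all genes. The median log2 difference of the 9 genes was 0.08 in TrbE10 and 0.01 in TrbE14, beside -0.02 and -0.03 over all genes, with 5 of the 9 genes above 0 and 4 below in each mutant.

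The promoters of both called genes are shown because Nkx2-5, the deleted factor, binds DNA in a sequence-specific way, and the windows let a reader see which letters lie at these starts. Each window runs from 250 bases before to 50 bases after an annotated start (RefSeq, GRCm38.p6), 5′ to 3′ on the gene's strand, and 7 of the 9 genes had one. Capitals mark matches to any of 4 motifs searched on both strands, the NKX2-5 element TNNAGTG (on the other strand CACTNNA), GATA as AGATAA (on the other strand TTATCT), AP-1 as TGANTCA, and a CArG-like core. No match overlapped another in these windows. Adra1b has 2 annotated starts (chr11:43901188-43901487 and chr11:43836440-43836739, minus strand) and Edn1 has 1 (chr13:42301226-42301525, plus strand).
Adra1b, upstream start: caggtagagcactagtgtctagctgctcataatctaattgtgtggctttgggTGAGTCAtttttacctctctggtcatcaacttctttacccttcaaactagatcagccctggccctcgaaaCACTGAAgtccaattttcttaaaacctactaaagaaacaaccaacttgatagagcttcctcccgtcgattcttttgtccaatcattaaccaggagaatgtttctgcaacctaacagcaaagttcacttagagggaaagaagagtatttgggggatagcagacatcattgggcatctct
Adra1b, downstream start: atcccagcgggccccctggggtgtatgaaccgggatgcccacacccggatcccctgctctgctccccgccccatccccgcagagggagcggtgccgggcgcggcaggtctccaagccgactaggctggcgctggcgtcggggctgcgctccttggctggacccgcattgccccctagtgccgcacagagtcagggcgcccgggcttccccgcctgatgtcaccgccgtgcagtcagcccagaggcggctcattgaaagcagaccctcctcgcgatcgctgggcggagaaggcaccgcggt
Edn1: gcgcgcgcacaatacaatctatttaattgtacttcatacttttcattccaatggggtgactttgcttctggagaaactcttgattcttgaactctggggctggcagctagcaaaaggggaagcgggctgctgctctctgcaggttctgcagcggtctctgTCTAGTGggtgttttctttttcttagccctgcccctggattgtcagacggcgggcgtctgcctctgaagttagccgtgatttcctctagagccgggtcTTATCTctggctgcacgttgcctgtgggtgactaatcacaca

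The upstream Adra1b window held an AP-1 match that begins at -198 from the start and a reversed NKX2-5 element at -128. The downstream window, in a stretch rich in G and C, held 0 matches. In the Edn1 window an NKX2-5 element began at -90 and a reversed GATA match just inside the transcribed part. These motifs are short. Of all 32851 mouse windows of the same length, 39.4% hold the NKX2-5 element, 11.2% the GATA letters, 7.81% the AP-1 letters and 0.0639% the CArG-like core. A match here is thus a description and does not by itself show a binding site. Binding was not measured.

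Among the receptors of catecholamines, the α1B receptor gene Adra1b was lower in TrbE10 hearts. With Adra1a it is the Gq-coupled adrenergic receptor of the rodent ventricle, and it was measured by 2 probes 920 bases apart. On the dimmer probe the control hearts read 7.60, 7.35, 7.66 and 7.67, the TrbE10 hearts 6.99, 6.99, 6.76 and 6.71, and the TrbE14 hearts 7.41, 7.51, 7.52 and 7.26. All 4 TrbE10 hearts therefore lay below all 8 others, and the TrbE14 hearts lay within or just under the control range. The difference of TrbE10 from control was -0.71 (SE 0.11, 95% interval -0.94 to -0.47, adjusted p = 0.00781), or 1.63-fold lower. The exact permutation p was 0.0286, the smallest that 4 against 4 arrays allow, and 5.47% of all probes had TrbE10 wholly below control. As all TrbE10 arrays were on their own slide, this difference cannot be told apart from one between slides. The call was kept with each of the 12 arrays left out in turn (-0.78 to -0.66, adjusted p 0.0078 to 0.0339). TrbE14 differed from control on this probe by -0.14 (95% interval -0.38 to 0.09, adjusted p = 0.552).

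The brighter Adra1b probe read 11.01, 10.69, 11.16 and 11.28 in control, 10.80, 10.72, 10.51 and 10.41 in TrbE10, and 10.98, 11.07, 11.16 and 10.87 in TrbE14 hearts. Here the lowest control, replicate 2, lay inside the TrbE10 range. The difference from control was -0.43 (SE 0.14, 95% interval -0.73 to -0.13, unadjusted p = 0.00966, adjusted p = 0.153), of the same sign but not called. With the mean of both probes in place of 1 probe, it was -0.57 (adjusted p = 0.0345). Set directly against TrbE14, TrbE10 hearts differed by -0.56 on the dimmer probe (unadjusted p = 2.25e-04, adjusted p = 0.215) and by -0.41 on the brighter one (adjusted p = 0.708), with no overlap of the groups on either. Of all probes 1.67% had TrbE10 wholly below TrbE14. By limma over all probes the lower Adra1b of TrbE10 is thus not shown to differ from TrbE14.

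**Figure D1:**
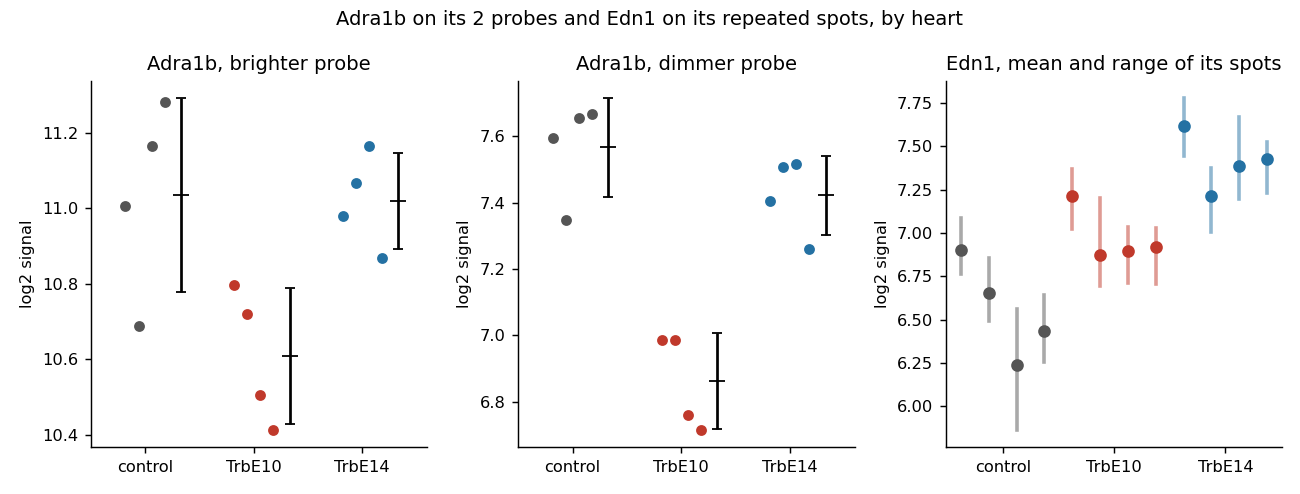
Log2 signal of Adra1b on its brighter and dimmer probe (points are hearts, bars the mean ± SD of 4) and of Edn1 (points are the mean of its spots on 1 array, lines run from the lowest to the highest spot). On the dimmer Adra1b probe the 4 TrbE10 hearts sit between 6.71 and 6.99, below all other hearts, and for Edn1 the 4 TrbE14 hearts sit between 7.21 and 7.62, above all controls.

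Adrb1, the β1 receptor, is the principal adrenergic receptor of ventricular muscle. On its brighter probe the control hearts read 8.93, 9.65, 9.62 and 9.40, the TrbE10 hearts 9.19, 9.63, 9.38 and 8.08, and the TrbE14 hearts 9.49, 9.14, 8.003 and 8.24. In 5 of the 8 mutant hearts the value lay within the control range, while TrbE10 replicate 4 and TrbE14 replicates 3 and 4 lay below the lowest control. The SD was 0.33 in control, 0.68 in TrbE10 and 0.71 in TrbE14, and this difference in spread was not tested. The group differences were -0.33 in TrbE10 (95% interval -1.17 to 0.52, adjusted p = 0.724) and -0.68 in TrbE14 (95% interval -1.52 to 0.17, adjusted p = 0.457), so neither passed the test and both intervals hold 0.

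The other Adrb1 probe starts 1973 bases upstream, at chr19:56797242-56797301 (mm9, plus strand), and its 60 letters are shown because it gives this receptor a second reading from another stretch of the transcript.
Adrb1 probe: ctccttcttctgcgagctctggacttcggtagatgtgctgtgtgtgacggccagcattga
It picked out the same 3 hearts. Its controls read 5.51, 5.94, 6.14 and 6.11, TrbE10 hearts 5.76, 5.66, 5.98 and 3.47, and TrbE14 hearts 5.90, 5.65, 2.97 and 5.01. The values 3.47 and 2.97 were not well above background, and the other 10 were. The differences on this probe, -0.71 in TrbE10 and -1.04 in TrbE14, carried adjusted p-values of 0.643 and 0.502, and each rested largely on 1 dim array. Without TrbE10 replicate 4 the first was -0.12, without TrbE14 replicate 3 the second was -0.40, and with normexp background correction they were -0.21 and -0.27.

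Adra1a, the other α1 receptor of the ventricle, was dim and did not separate the groups. Its values were 6.07, 5.38, 6.21 and 6.05 in control, 5.46, 6.33, 6.28 and 6.07 in TrbE10, and 5.73, 5.88, 5.59 and 6.54 in TrbE14 hearts. The 3 groups covered nearly the same range. The difference from control was 0.11 in TrbE10 (95% interval -0.46 to 0.68) and 0.01 in TrbE14 (-0.56 to 0.58), with adjusted p-values of 0.870 and 0.984.

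**Figure D2:**
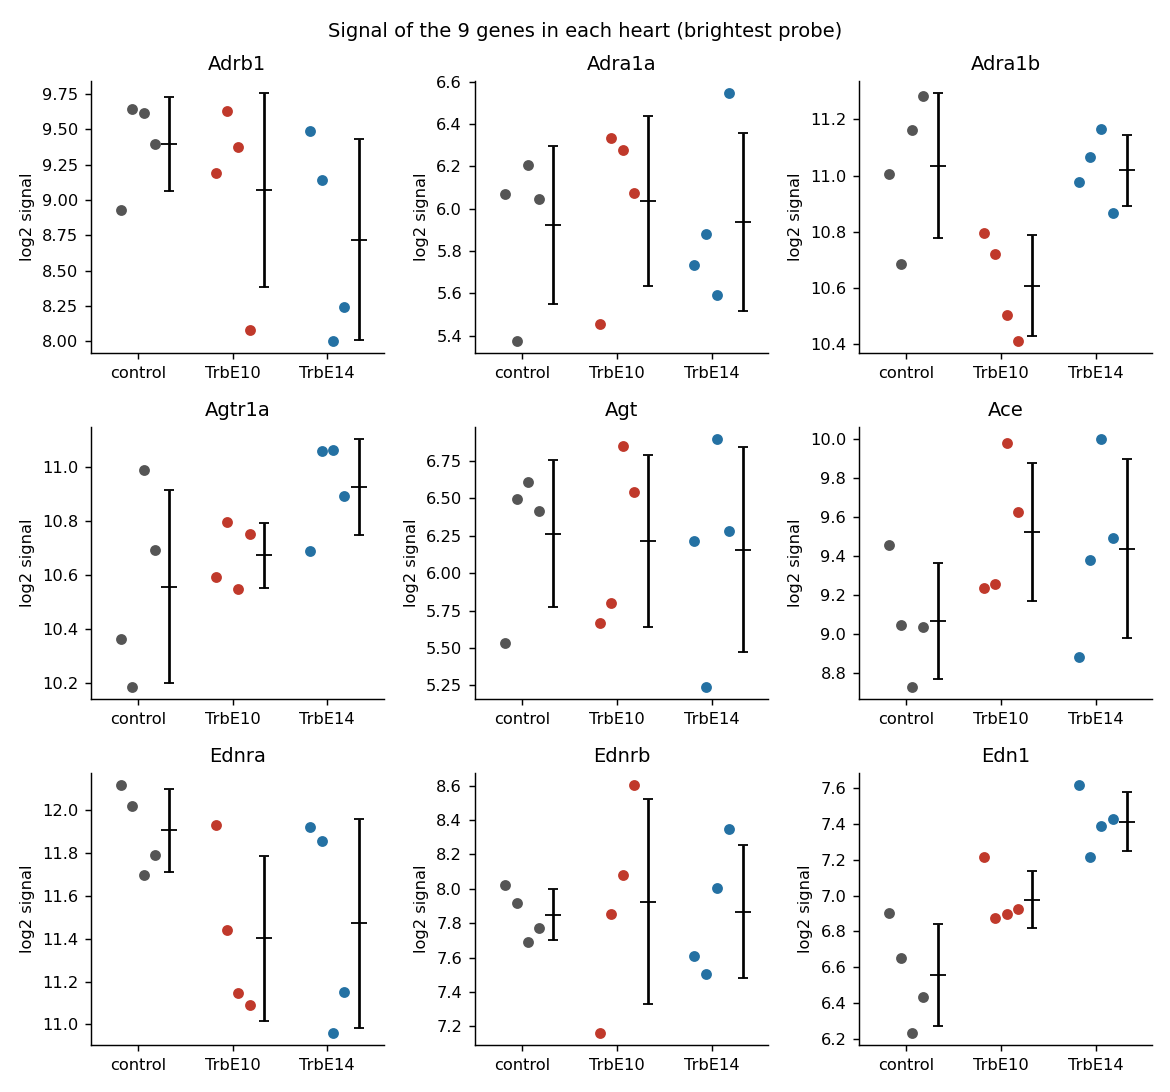
Log2 signal of each of the 9 genes on its brightest probe, by group. Each point is 1 heart and the bar beside it the mean ± SD of 4; each panel has its own axis. Edn1 separates TrbE14 from control without overlap, while for Adrb1 some mutant hearts fall to between 8.003 and 8.24 and others stay with the controls.

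In the angiotensin system 0 of the 3 genes passed the test in any comparison. Agt, the precursor of angiotensin II, read 5.54, 6.50, 6.61 and 6.42 in control, 5.67, 5.80, 6.85 and 6.54 in TrbE10, and 6.21, 5.24, 6.90 and 6.28 in TrbE14 hearts. Every group held both low and high hearts, and the differences were -0.05 (95% interval -0.88 to 0.78) and -0.11 (-0.94 to 0.72). Both intervals are wide, and differences of up to 0.72 in either direction lie within both.

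Ace, which makes angiotensin II, read 9.46, 9.05, 8.73 and 9.04 in control hearts. The TrbE10 hearts read 9.23, 9.26, 9.98 and 9.62 and the TrbE14 hearts 8.88, 9.38, 10.00 and 9.49. The 4 highest values were all in mutants, but the groups overlapped through control replicate 1. The differences of 0.46 in TrbE10 (95% interval -0.08 to 1.00, adjusted p = 0.386) and 0.37 in TrbE14 (-0.17 to 0.91, adjusted p = 0.517) missed the threshold.

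Agtr1a, the type 1 receptor, read 10.36, 10.19, 10.99 and 10.69 in control, 10.59, 10.80, 10.55 and 10.75 in TrbE10, and 10.69, 11.06, 11.06 and 10.89 in TrbE14 hearts. The SDs were 0.36 in control and 0.12 and 0.18 in the mutants, the controls running from replicate 2 to replicate 3. In TrbE14 the difference was 0.37 (95% interval 0.01 to 0.73, unadjusted p = 0.0444, adjusted p = 0.354), and in TrbE10 it was 0.12 (-0.24 to 0.47, adjusted p = 0.771). An unadjusted p under 0.05 was reached by 13.6% of all probes in TrbE14, so this share is the background for the Agtr1a value.

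Of the endothelin genes, the ligand was higher in TrbE14 hearts and neither receptor passed the test. Edn1, which encodes endothelin 1, a vasoconstrictor and growth signal for muscle cells, read 6.90, 6.65, 6.24 and 6.44 in control, 7.22, 6.88, 6.90 and 6.92 in TrbE10, and 7.62, 7.21, 7.39 and 7.43 in TrbE14 hearts. All 4 TrbE14 hearts lay above all 4 controls, and TrbE10 lay between, its lowest heart just under the highest control. The difference of TrbE14 from control was 0.85 (SE 0.15, 95% interval 0.53 to 1.17, adjusted p = 0.0259), or 1.81-fold higher. The exact permutation p was 0.0286, and 4.3% of all probes had TrbE14 wholly above control.

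Edn1 was printed on each array as 10 spots, of which 9 to 10 were used, and the SD between spots of 1 array was 0.09 to 0.25. The mean of an array was thus better determined than for the genes with 1 spot. The call was nevertheless near the threshold. It was lost without control replicate 2, 3 or 4 or without TrbE14 replicate 1, 3 or 4 (0.75 to 0.89, adjusted p 0.0609 to 0.0876), and with the Y-linked signal as a covariate the difference was 0.86 (adjusted p = 0.0525). With normexp background correction it was smaller, 0.56 (adjusted p = 0.0182).

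In TrbE10 hearts Edn1 differed from control by 0.42 (SE 0.15, 95% interval 0.10 to 0.74, adjusted p = 0.184) and was not called. The direct difference of TrbE10 from TrbE14 was -0.43 (95% interval -0.75 to -0.11, adjusted p = 0.716), so the higher Edn1 of TrbE14 is not shown to differ between the mutants. Endothelial markers stood beside it as follows. All 10 were measured, 0 of 10 were called in either mutant, and their summed linear signal was 43106 to 52321 in control, 50053 to 53354 in TrbE10 and 50652 to 59908 in TrbE14 hearts. The group medians of the sum, 47093, 52800 and 54484, rose in the same order as Edn1. Within the groups the sum did not follow Edn1 heart by heart. Replicate 1 had the highest Edn1 of its group in control (6.90) and TrbE10 (7.22) but the lowest sum there (43106 and 50053). In TrbE14 replicate 1 had the highest Edn1 (7.62) with a sum of 52864, inside the range of its group. Fibroblast markers moved further. All 10 were measured, and their sum was 102915 to 111864 in control, 123948 to 148127 in TrbE10 and 133576 to 157378 in TrbE14 hearts, so both mutants lay wholly above the controls, with 1 of 10, Dcn, called higher in each. The 5 atrial muscle markers summed to 15328 to 73934 in control, 57798 to 185776 in TrbE10 and 87523 to 103541 in TrbE14 hearts, with 1 of 5, Sln, called higher in TrbE10 and 0 in TrbE14. The part of these lists in the Edn1 difference was not tested.

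Ednra, the receptor of vascular and cardiac muscle cells, read 12.12, 12.02, 11.70 and 11.79 in control, 11.93, 11.44, 11.15 and 11.09 in TrbE10, and 11.92, 11.86, 10.96 and 11.15 in TrbE14 hearts. In 5 of 8 mutant hearts it lay below the lowest control, and in 3 it lay inside the control range. The differences were -0.50 in TrbE10 (95% interval -1.04 to 0.03, adjusted p = 0.336) and -0.43 in TrbE14 (-0.97 to 0.10, adjusted p = 0.455). Leaving out 1 TrbE14 heart, replicate 3, brought the second value to -0.26.

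Ednrb, the receptor known for nitric oxide release and endothelin clearance in endothelium, was measured by 2 probes 6386 bases apart. The brighter read 8.02, 7.92, 7.69 and 7.77 in control, 7.16, 7.85, 8.08 and 8.60 in TrbE10, and 7.61, 7.51, 8.004 and 8.35 in TrbE14 hearts. Mutant hearts lay on both sides of the narrow control range, with SDs of 0.60 and 0.39 against 0.15, so the means barely moved (0.08, 95% interval -0.52 to 0.67, and 0.02, -0.58 to 0.62).

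The second Ednrb probe, at chr14:104220870-104220929 (mm9, minus strand), is shown because it gives the spread of this receptor a second reading from another stretch of the transcript.
Ednrb probe: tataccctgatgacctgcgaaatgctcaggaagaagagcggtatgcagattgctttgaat
It read 7.26, 7.10, 7.27 and 7.26 in control, 6.97, 7.20, 7.59 and 8.33 in TrbE10, and 6.97, 6.82, 7.81 and 7.84 in TrbE14 hearts. Both probes placed TrbE10 replicate 4 highest, and both placed TrbE14 replicate 4 next. The control SD was 0.08 and the mutant SDs 0.60 and 0.54. Whether the mutants are more variable than the controls was not tested.

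**Figure D3:**
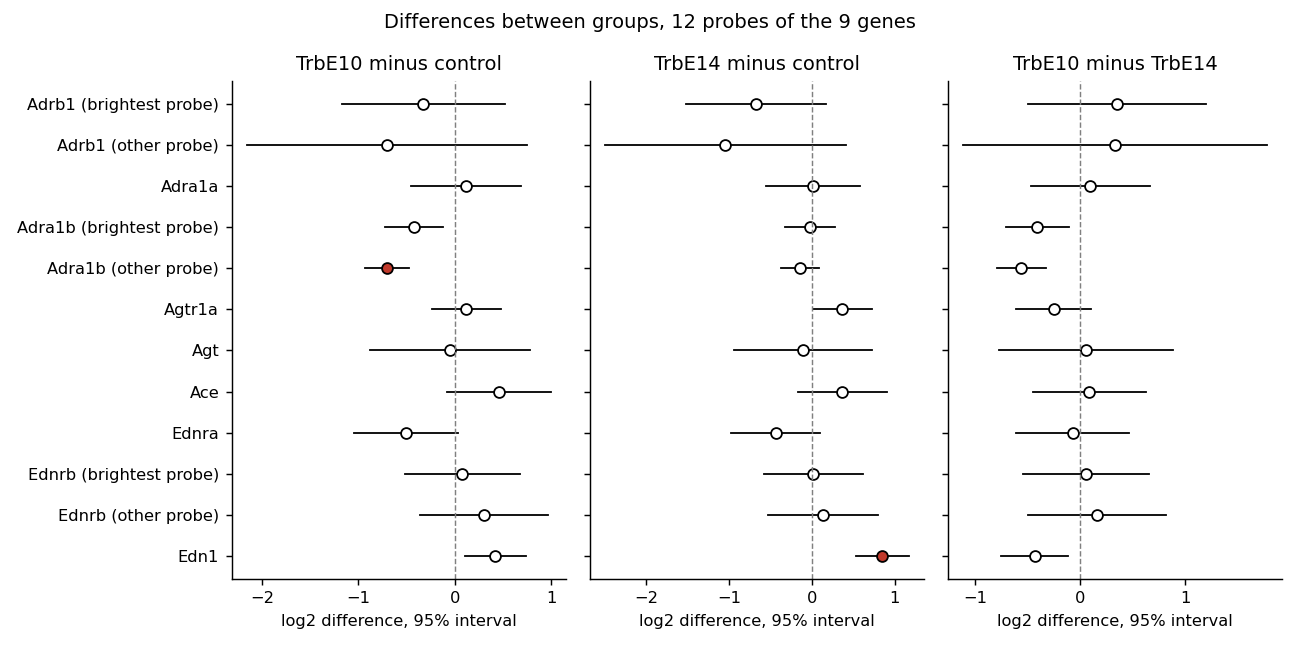
Log2 differences between groups for the 12 probes of the 9 genes, with 95% intervals from limma on the horizontal axis; filled points passed an adjusted p of 0.05. Only Adra1b (-0.71, TrbE10 against control) and Edn1 (0.85, TrbE14 against control) are filled, and none is filled between the mutants.

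Read heart by heart, the lowest Adrb1 values lay in the same hearts as low Ednra and high Ednrb and Ace values. Adrb1 was lowest in TrbE10 replicate 4 and TrbE14 replicates 3 and 4 (8.08, 8.003 and 8.24), and the same 3 hearts had Ednra values of 11.09, 10.96 and 11.15, with TrbE10 replicate 3 beside them at 11.15. On the second Ednrb probe the same hearts read 8.33, 7.81 and 7.84, the 3 highest values of the 12. On the brighter Ednrb probe they read 8.60, 8.004 and 8.35, and there TrbE10 replicate 3 (8.08) and control replicate 1 (8.02) lay above the lowest of them. Ace read 9.62, 10.00 and 9.49 in these hearts, above every control, but the second highest Ace value (9.98) belonged to TrbE10 replicate 3. Other genes did not follow this order. Adra1a (6.07, 5.59 and 6.54), Agt (6.54, 6.90 and 6.28) and Agtr1a (10.75, 11.06 and 10.89) did not set these hearts apart, and the highest Edn1 (7.62) lay in TrbE14 replicate 1, where Adrb1 was 9.49. This grouping of hearts was noticed in the values and no test was run on it. It was also seen over all tested probes, so it is not particular to these genes. There TrbE10 replicate 4 and TrbE14 replicate 4 had the highest correlation of any pair of arrays (r = 0.98994). TrbE14 replicates 1 and 2 came just below (0.98992). TrbE14 replicate 3 correlated by 0.985 with TrbE10 replicate 4 and by 0.987 with TrbE14 replicate 4, but by 0.968 to 0.975 with the controls. All 3 of the low-Adrb1 hearts carried the Y-linked signal and had a high signal of the clock gene Dbp (14.20, 14.20 and 14.35), whereas the 3 other hearts with Y-linked signal had a low Dbp (11.21, 11.81 and 11.98). Dbp was as high in control replicates 3 and 4 and TrbE10 replicate 3 (14.24, 14.505 and 14.22), which carried no Y-linked signal and had Adrb1 values of 9.62, 9.40 and 9.38. With the Y-linked signal as a covariate the TrbE14 difference of Adrb1 went from -0.68 to -0.34 (adjusted p = 0.723), and with the Dbp signal as a covariate it was -0.67. The part of both together in the grouping was not tested.

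**Figure D4:**
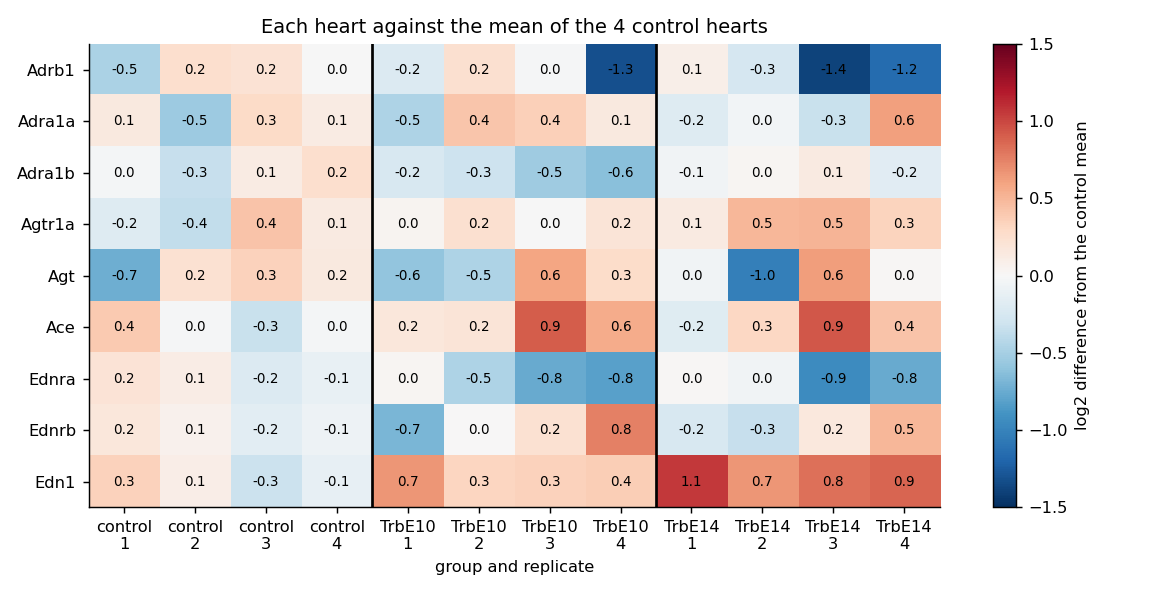
Each of the 12 hearts (columns, by group and replicate) against the mean of the 4 control hearts for the 9 genes (rows), as log2 differences on the brightest probe; blue is lower and red higher than the control mean. Adrb1 and Ednra are both blue in TrbE10 replicate 4 and TrbE14 replicates 3 and 4, and Edn1 is red in all 8 mutant hearts.

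The gene whose pattern over the 12 hearts was most like that of each receptor was found among 18020 other genes by Pearson's r, as a description in which all points share arrays and scaling. For Adrb1 it was Zfp113 (r = 0.98), followed among annotated genes by Kmo (0.96). Adra1b was most like Th (0.90) and Rbfox1 (0.88). Ednra was most like Bves (0.97), Lime1 (0.94) and Catsper2 (0.94), and Ednrb most like Gpn2 (0.94), Ppp2r2d (0.93) and Stk17b (0.92). Edn1 was nearest to Anxa5 (0.93), Col4a4 (0.92) and Ppil4 (0.90), and Ace to Adss (0.92), Kif26b (0.92) and Dcaf5 (0.91). The highest of 18020 coefficients over 12 hearts is large for any gene, as those of Adra1a with Ccdc76 (0.93), Agtr1a with Rit1 (0.91) and Agt with Vps33b (0.84) show for genes that were not called.

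Of the other genes of these pathways 71 were measured, and 3 were called in TrbE10 and 2 in TrbE14, or 4.23% and 2.82% beside the 2.15% and 0.76% of all genes given above. Counts of 3 and 2 are too small to set apart from that background. The 3 include Maoa, which passed the filter only through the mutant groups, where it was higher. Under the filter on 9 of 12 arrays, where Maoa was not tested, 2 were called in TrbE10, Arrb2 and Prkce. Of 32 further adrenergic genes 27 were measured, and in TrbE10 hearts 2 (Arrb2 and Maoa) were higher and 0 lower, with a median difference of -0.06. In TrbE14 hearts 0 of the 27 were called and the median was 0.03. Maoa, the mitochondrial enzyme that breaks down noradrenaline, read 4.74, 4.80, 4.91 and 4.99 in control, 5.84, 5.85, 6.44 and 6.09 in TrbE10, and 5.65, 5.30, 4.66 and 5.45 in TrbE14 hearts. The TrbE10 hearts lay above all others, as they lay above the controls on 4.59% of all probes. The difference from control was 1.20 (adjusted p = 0.0153). Only 1 of 4 control arrays was well above background for Maoa, against 4 of 4 in TrbE10 and 3 of 4 in TrbE14, so its size depends on how background is treated. With normexp background correction it was 0.44 (adjusted p = 0.0223), and with the replicate block the call was lost (1.20, adjusted p = 0.0510). Maoa passed the filter only through the mutant groups, where it was higher, and under the filter on 9 of 12 arrays it was not tested.

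Arrb2, β-arrestin 2, which uncouples receptors from their G proteins, read 7.40, 7.83, 7.85 and 7.62 in control and 8.59, 8.14, 8.60 and 8.16 in TrbE10 hearts. That is a difference of 0.70 (adjusted p = 0.0325) without overlap, where 4.59% of all probes had TrbE10 wholly above control. The TrbE14 hearts, at 8.12, 8.01, 7.88 and 7.98, differed by 0.32 (adjusted p = 0.342). The Arrb2 values stood beside a larger macrophage signal. Of 11 macrophage markers 10 were measured, 5 were called higher in TrbE10 and 1 in TrbE14, and their summed linear signal was 11248 to 13580 in control, 19264 to 24183 in TrbE10 and 17771 to 19174 in TrbE14 hearts. Its part in the Arrb2 difference was not tested. Grk5, a kinase that phosphorylates activated receptors, differed by -0.33 in TrbE10 (adjusted p = 0.256), and the cyclase Adcy6, which makes cyclic AMP, by -0.31 (adjusted p = 0.0820), neither being called.

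Of 17 further renin-angiotensin genes 12 were measured. Enpep, the aminopeptidase that converts angiotensin II to angiotensin III, was the 1 gene called, higher in TrbE14. It read 5.59, 4.99, 5.09 and 4.97 in control, 5.61, 6.11, 5.75 and 6.23 in TrbE10, and 5.86, 6.26, 6.14 and 6.23 in TrbE14 hearts. Every mutant heart lay above every control, as TrbE10 did on 4.59% and TrbE14 on 4.3% of all probes. The lowest TrbE10 heart (5.61) lay just above the highest control (5.59). The difference was 0.97 in TrbE14 (adjusted p = 0.0341) and 0.77 in TrbE10 (adjusted p = 0.0535), where it just missed the threshold. With normexp background correction the values were 0.34 (adjusted p = 0.0981) and 0.29 (adjusted p = 0.118), and the call was lost. Of the control arrays 3 of 4 were well above background for Enpep. The list's median was -0.28 in TrbE14 and -0.15 in TrbE10. In each mutant 7 of the 12 measured genes were lower and 5 higher, and 0 were called lower. Smooth muscle and pericyte markers summed to 68376 to 82830 in control, 73234 to 99738 in TrbE10 and 81265 to 108758 in TrbE14 hearts, with 1 of 11 called in TrbE10 and 0 in TrbE14, and their part in the Enpep difference, like that of the fibroblast markers given above, was not tested.

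Of 6 further endothelin genes 2 were measured, Ece1 and Ece2, the converting enzymes, and 0 of 2 were called in any comparison. Ece1 differed from control by 0.04 in TrbE10 and 0.45 in TrbE14 (adjusted p = 0.953 and 0.368), and Ece2 by -0.05 and -0.27 (adjusted p = 0.875 and 0.392). Of 32 genes of the Gq and calcineurin branch, through which α1, angiotensin and endothelin receptors signal, 30 were measured. In TrbE10 hearts 1 was lower, and in TrbE14 hearts 1 was higher, both being protein kinase C isoforms activated by diacylglycerol. Prkce read 6.89, 6.68, 6.66 and 6.65 in control, 6.03, 6.26, 5.97 and 6.15 in TrbE10, and 6.28, 6.64, 6.13 and 6.23 in TrbE14 hearts. All 8 mutant hearts lay below the controls, with differences of -0.62 in TrbE10 (adjusted p = 0.0261) and -0.40 in TrbE14 (adjusted p = 0.191). Of all probes 5.47% had TrbE10 and 5.13% had TrbE14 wholly below control. With normexp background correction the Prkce values were -0.28 (adjusted p = 0.0913) and -0.11 (adjusted p = 0.480), and the call was lost. Prkcd read 8.21, 8.55, 8.38 and 8.21 in control, 8.47, 8.54, 8.38 and 8.60 in TrbE10, and 8.84, 8.83, 9.04 and 8.85 in TrbE14 hearts. The TrbE14 hearts lay above all 8 others, by 0.55 against control (adjusted p = 0.0323), while 4.3% of all probes had TrbE14 wholly above control. The fibroblast sum given above was higher in both mutants, with medians of 110968 in control, 145273 in TrbE10 and 148105 in TrbE14. Prkcd in TrbE10 overlapped the controls. The part of the fibroblast signal in the Prkcd difference was not tested. The other measured genes of the branch were not called in either mutant, and 0 of the 71 pathway genes were called between the mutants. Of these 5 calls, that of Maoa was kept with each array left out in turn (1.07 to 1.27, adjusted p 0.0032 to 0.0494). With the replicate block it was lost, and under the filter on 9 of 12 arrays Maoa was not tested, as given above. Each of the others was lost in 6 or 7 of the 12 such fits, with adjusted p-values of at most 0.110, and kept its direction in all of them.

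**Figure D5:**
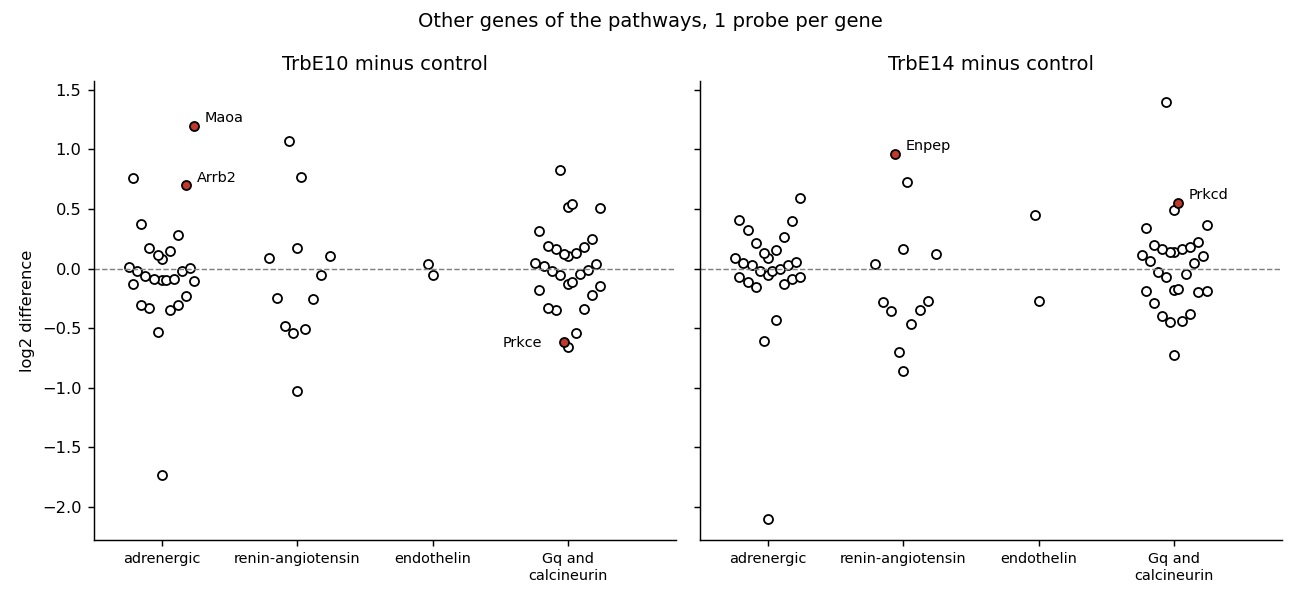
Log2 differences of each mutant from control for the other measured genes of 4 pathway lists, 1 probe per gene. Where a probe of a gene was called in a panel, that probe is drawn there, and otherwise the brightest. Filled points with names passed an adjusted p of 0.05. The filled points are Maoa (1.20), Arrb2 (0.70) and Prkce (-0.62) in TrbE10, and Enpep (0.97) and Prkcd (0.55) in TrbE14.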

How the data were processed

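Left ventricular RNA (wall and apex without septum, TRIzol) of 12 mice was labelled with Cy3 and hybridized to one-colour Agilent arrays. The authors deposited the scanner output (Agilent Feature Extraction 10.5 per the labels), in which the processed signal is a linear intensity after background subtraction, together with log2 values that they had quantile normalized and filtered (column medians 8.58 to 8.60 over 22114 probes). Here the linear values were put on a log2 scale and quantile normalized (limma 3.58.1, R 4.3.3, data.table version 1.17.8). Of 62976 spots, 3671 controls were removed, 93 to 131 outlier spots per array were set to missing, and 0 spots were saturated. A probe was kept if 3 of 4 arrays (75%) in some group rose well above background. The 75th percentile of signal was 195 to 250 per array, and precision is limited by how many arrays there are.

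A limma model with 1 mean per group was fitted to all 24593 probes (9 residual and 2.19 prior degrees of freedom), with Benjamini-Hochberg adjustment over them within each comparison, and was tested on simulated data. Exact permutation tests were two-sided over 70 label orders. The brightest probe stands for a gene, and others are given where they differ. Named genes are the 9 chosen, Nkx2-5, pathway genes called in any comparison, and the 3 genes most like each of the 9, interval-named transcripts left out of the text. Adcy6, Grk5, Ece1, Ece2, Cma1, Mas1, Ren1 and Prkcb were named after their values were seen. The 9 genes and the lists were chosen with earlier results of these data known. Alternatives were another scaling, normexp (offset 50), other filters, the authors' values, fits of 2 groups, SAM, a replicate block, Y-linked and Dbp covariates, the mean of a gene's probes, and each array left out. Whether the arrays' mice came from separate litters is not given in the sources used here, so p-values measure the spread between these hearts. Promoters are RefSeq sequences, and figures were drawn with Python 3.11.15 and matplotlib 3.10.9.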

Additional observations from a re-analysis of the deposited data

Results flagged for a closer look

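In 3 of 36 groups tested, 1 heart stood far from the other 3, as judged by its gap to the nearest heart divided by the range of the group. Chance flags about 1 in 20 groups. On the second Adrb1 probe TrbE10 replicate 4 read 3.47 (gap over range 0.871), not well above background. For Edn1 TrbE10 replicate 1 read 7.22, above the other 3 (0.862). On the second Ednrb probe control replicate 2 read 7.10, below the other 3 (0.916), although that group spans only 0.17 on the log2 scale.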

How the results depend on the processing

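The Adra1b call in TrbE10 kept its direction and its side of the threshold under all alternatives run, with differences of -0.71 to -0.48 (the smallest under normexp) and adjusted p-values of 0.0075 to 0.0311, single arrays aside. The Edn1 call in TrbE14 did not. The number of the 9 genes called in TrbE14 was 0 with no filter (Edn1 adjusted p = 0.0596), with only the 2 groups compared (0.0724) and with the Y-linked covariate (0.0525), and the number called over the 3 groups was 1 with no filter, 1 with the Y-linked covariate and 1 with the replicate block, under which Adra1b was lost. Leaving out single arrays gave 1 to 1 genes in TrbE10, 0 to 1 in TrbE14, 0 to 0 between the mutants and 0 to 2 over the 3 groups (0 without TrbE10 replicate 3 or 4). The cause was not tested. Over all genes the main counts of 387 called in TrbE10, 137 in TrbE14 and 246 over the 3 groups became 183, 114 and 161 with no filter, 443, 223 and 360 with normexp, 246 and 131 with 2 groups only, and 479 and 298 by SAM, and between the mutants 0 became 0 to 2. With single arrays left out the ranges were 145 to 655 (its ends lying at TrbE10 replicates 3 and 2), 74 to 174 and 118 to 402. The deviations of same-numbered hearts correlated by -0.24 to 0.48 in 12 pairs, of which 3 were over 0.1, all between TrbE10 and TrbE14 (0.37, 0.31 and 0.48 for replicates 1, 2 and 4, and -0.0085 for replicate 3), and 6 of 12 arrays correlated best with their own number. Since no pair with a control was over 0.1, the numbers are not taken to pair the hearts across the 3 groups. For the mutants alone these values do not settle it. With the replicate block Adra1b differed by -0.71 (adjusted p = 0.0311) in TrbE10 and Edn1 by 0.85 (0.0173) in TrbE14. SAM called Adra1b and Edn1 alike (q = 0.0241 each). No scaling moved the median of all probes by 0.1. The slide as a block could not be fitted, since all TrbE10 arrays lie on a slide of their own.

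The same alternatives were applied to the pathway genes after seeing the data. Of 3 called in TrbE10, 1 was called with no filter. Prkce was lost under normexp, Arrb2 with only the 2 groups compared and Maoa under the filter on 9 of 12 arrays. Of 2 in TrbE14, 1 was called under normexp, 1 with no filter, 0 with only the 2 groups compared and 0 with the replicate block (Maoa then 1.20 with adjusted p = 0.0510, Arrb2 0.0749, Prkcd 0.0808, Enpep 0.0975). Other genes were gained in some settings. In TrbE10 these were Ren1 with the authors' values, Prkcb with SAM and with the replicate block, and Enpep with the Y-linked or the Dbp covariate. In TrbE14 Arrb2 was gained with the Y-linked covariate. With single arrays left out the counts ran from 1 to 5 in TrbE10 (5 without replicate 2, with Cma1 and Mas1) and 0 to 2 in TrbE14. Enpep was also called in TrbE10 without control replicate 1. The call was lost for Arrb2 without control 1, 3 or 4, TrbE10 1 or 3 or TrbE14 2, for Prkce without any control or TrbE10 1, 3 or 4, for Prkcd without control 1, 3 or 4 or any TrbE14 array, for Enpep without control or TrbE14 2, 3 or 4, and for Nkx2-5 in TrbE10 without any array but TrbE10 2 or TrbE14 1. Normexp gave 0.44 for Maoa, -0.28 for Prkce (adjusted p = 0.0913) and 0.34 for Enpep (0.0981).

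Differences near 0 changed sign. Under normexp these were Agt (0.036 in TrbE14, -0.066 between the mutants), Adra1a (-0.054 in TrbE14) and Ednrb (-0.037 in TrbE14). With the Y-linked covariate they were Agt (0.039 in TrbE10, 0.069 in TrbE14, -0.030 between the mutants), Adra1a (-0.12 in TrbE14) and Ednrb (-0.029 in TrbE10, -0.19 in TrbE14 and, on its second probe, -0.044 in TrbE14). With single arrays left out, TrbE10 against control ran from -0.29 to 0.14 for Agt, -0.0077 to 0.26 for Agtr1a, -0.071 to 0.30 for Adra1a, -0.51 to 0.0037 for Adrb1 and -0.15 to 0.33 for Ednrb. TrbE14 against control ran from -0.35 to 0.20 for Agt, -0.13 to 0.066 for the brighter Adra1b probe, -0.19 to 0.13 for Adra1a, -0.14 to 0.14 for Ednrb and -0.023 to 0.32 for its second probe. Between the mutants the values ran from -0.25 to 0.30 for Agt, -0.30 to 0.92 for the second Adrb1 probe, -0.25 to 0.079 for Ednra, -0.018 to 0.30 for Adra1a, -0.17 to 0.31 for Ednrb, -0.11 to 0.35 for its second probe and -0.10 to 0.27 for Ace.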
